A study of Mus musculus with 8 samples.

Results

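The AP-1 and Egr immediate-early factors followed here are 10 genes, Fos, Fosb, Fosl2, Jun, Junb, Jund, Egr1, Atf3, Ier2 and Dusp1. They were taken by symbol from a table of raw read counts for 23284 genes, which held all 10. The cells sequenced were stem and progenitor cells of the blood, sorted from mouse bone marrow as LSK cells, which lack lineage markers and carry Sca-1 and c-Kit at their surface. The mice were of C57BL/6 strain and carried a green fluorescent protein reporter for Hdc, the gene of the histamine-forming enzyme histidine decarboxylase. LSK cells with high reporter signal gave 4 libraries (Hdc-GFPhi) and LSK cells with low signal gave 4 (Hdc-GFPlo), each from RNA of 2000 sorted cells. Both fractions carried the reporter, and neither received a treatment that the labels name. Age and pooling of mice are not given in the labels, nor is the number of mice behind each library. The cell type label of Hdc-GFPhi replicate 4 says GFP+ rather than GFPhi, and that library was kept in its titled group. Beside the comparison of both fractions, replicates 1 and 2 of each were set against replicates 3 and 4, a split first noticed in these data. No label says what the replicate numbers stand for, so calls on the split describe these 8 libraries.

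Immediate-early genes are transcribed within minutes of a growth factor, cytokine or stress signal, without new protein synthesis, and their transcripts are short-lived. Fos proteins pair with Jun proteins to form AP-1, a leucine zipper dimer that binds its own DNA site, while Jun proteins can also pair with each other. Egr1 is a zinc finger factor induced by the same MAP kinase and serum response factor pathways. Handling of cells during tissue dissociation and sorting is known to induce these genes, and in stem cells Egr1 has been linked to quiescence and retention in the niche. AP-1 factors also act in myeloid differentiation.

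The upstream sequences of 5 members are shown because they differ in the elements through which such signals are known to act. They were read from RefSeq windows (GRCm38.p6) of the bases before each gene's start, on the gene's own strand, 5′ to 3′. Capitals mark matches to the cAMP response element TGACGTCA, its half-site TGACG, the variant TGACATCA or the Egr motif GCGNGGGCG. Fos is at chr12:85473740-85473889 (plus strand), Fosb at chr7:19310046-19310195 (minus), Jun at chr4:95052223-95052372 (minus) and Junb at chr8:84978749-84978898 (minus), each covering bases 150 to 1 before the start. For Fosb, 6 of these bases lie in an annotated exon. Dusp1 is at chr17:26508573-26508672 (minus), covering bases 200 to 101, which lie in no annotated exon.
Fos: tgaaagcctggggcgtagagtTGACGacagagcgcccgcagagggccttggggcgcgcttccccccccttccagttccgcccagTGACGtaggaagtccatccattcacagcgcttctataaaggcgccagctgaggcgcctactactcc
Fosb: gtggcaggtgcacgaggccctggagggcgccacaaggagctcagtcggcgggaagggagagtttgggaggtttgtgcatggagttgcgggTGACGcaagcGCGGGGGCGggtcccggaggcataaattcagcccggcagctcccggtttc
Jun: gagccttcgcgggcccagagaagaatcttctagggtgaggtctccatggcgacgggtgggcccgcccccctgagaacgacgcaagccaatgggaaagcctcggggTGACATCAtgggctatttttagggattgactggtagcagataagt
Junb: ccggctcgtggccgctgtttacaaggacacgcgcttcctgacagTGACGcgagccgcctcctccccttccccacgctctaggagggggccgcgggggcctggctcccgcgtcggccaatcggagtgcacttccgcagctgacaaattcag
Dusp1: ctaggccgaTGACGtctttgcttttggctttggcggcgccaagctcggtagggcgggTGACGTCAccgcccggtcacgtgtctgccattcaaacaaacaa

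Windows of 250 bases before the start were matched for 8 of the 10 members and searched on both strands. The half-site TGACG was found in 5 of these 8 windows (Fos, Fosb, Junb, Atf3 and Dusp1), and in 17.8% of all 32851 windows of the same length. The full element TGACGTCA, which contains the half-site on both strands, was found upstream of Dusp1 at bases 143 to 136, and in 1.55% of all windows. The Jun window held TGACATCA at bases 45 to 38, an element present in 2.93% of all windows. Egr motifs GCGNGGGCG lay upstream of Fosb and Fosl2, and in 4.70% of all windows. Neither the AP-1 motif TGANTCA (6.75% of all windows) nor the CArG box of serum response factor (1.47%) was matched in the 8 windows. At such shares 8 windows are too few to read an absence, and bases further upstream were not searched.

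The libraries held 16726179 to 23051277 counts in replicates 1 and 2 and 18204096 to 22470121 in replicates 3 and 4. Of all genes, 13300 had enough counts to be tested, among them 9 of the 10 members, and Atf3 was too low. Levels are given as CPM, counts relative to the library's total scaled by edgeR's TMM factor. The sorted identity was carried by the stem and progenitor markers, with Kit between 748 and 1537 CPM and Ly6a, which encodes Sca-1, between 96.4 and 144 CPM in all 8 libraries. Markers of cells outside the sort were present to differing degrees. The 6 T and NK cell markers summed to 0.0890 to 1.21 CPM in Hdc-GFPhi and 0.297 to 2.94 CPM in Hdc-GFPlo libraries, with Cd8a at 0 counts in all 8. The 7 neutrophil markers summed to 1126 to 2046 CPM in Hdc-GFPhi and 1561 to 2553 CPM in Hdc-GFPlo libraries, and the 6 B cell markers to 96.3 to 171 CPM in Hdc-GFPhi and 225 to 390 CPM in Hdc-GFPlo libraries. Xist was detected and 4 Y-linked genes were at 0 counts in every library, on both sides of the split. In bulk samples such as these, fewer cells of a type and less RNA per cell cannot be told apart.

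Between the fractions, no member was called. Of the 9 tested members, 0 passed an adjusted p of 0.05 in edgeR's quasi-likelihood test with Benjamini-Hochberg adjustment, and 0 had an unadjusted p below it, where 0.947% of all tested genes were called and 10.9% had such an unadjusted p. All 9 log2 fold changes lay above 0, with a median of 0.26, beside a median of 0.00 over all tested genes and 49.9% of them above 0. The tested members other than Fosl2 rose and fell together over the 8 libraries (Pearson r of 0.952 to 0.995 with the members' mean). Their signs are therefore not separate observations. Without Hdc-GFPhi replicate 1 most of them fell below 0, with Fos at -0.40, Jun at -0.29 and Dusp1 at -0.15. The 95% intervals were wide for most members, from -3.02 to 3.55 for Fos and from -1.89 to 2.79 for Egr1, and Fosl2 had a narrow one. The libraries of the fractions overlapped for all 10 members, while 6.92% of tested genes had fractions that did not overlap.

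Across the split, 8 of the 9 tested members were called higher in replicates 1 and 2 than in replicates 3 and 4, and none was called lower. In that fit, which has the fraction as a term, 0.489% of all tested genes were called higher and 0.383% lower. The 10 members together made up 0.172% to 0.286% of all counts in replicates 1 and 2 and 0.0474% to 0.0770% in replicates 3 and 4. Every library of replicates 1 and 2 was above every library of replicates 3 and 4 for the 8 called members, where 3.99% of tested genes had that order. Dusp1, Egr1 and Fos had the smallest p values of all 13300 tested genes, and Junb, Jun and Fosb were also among the first 10.

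**Figure D1:**
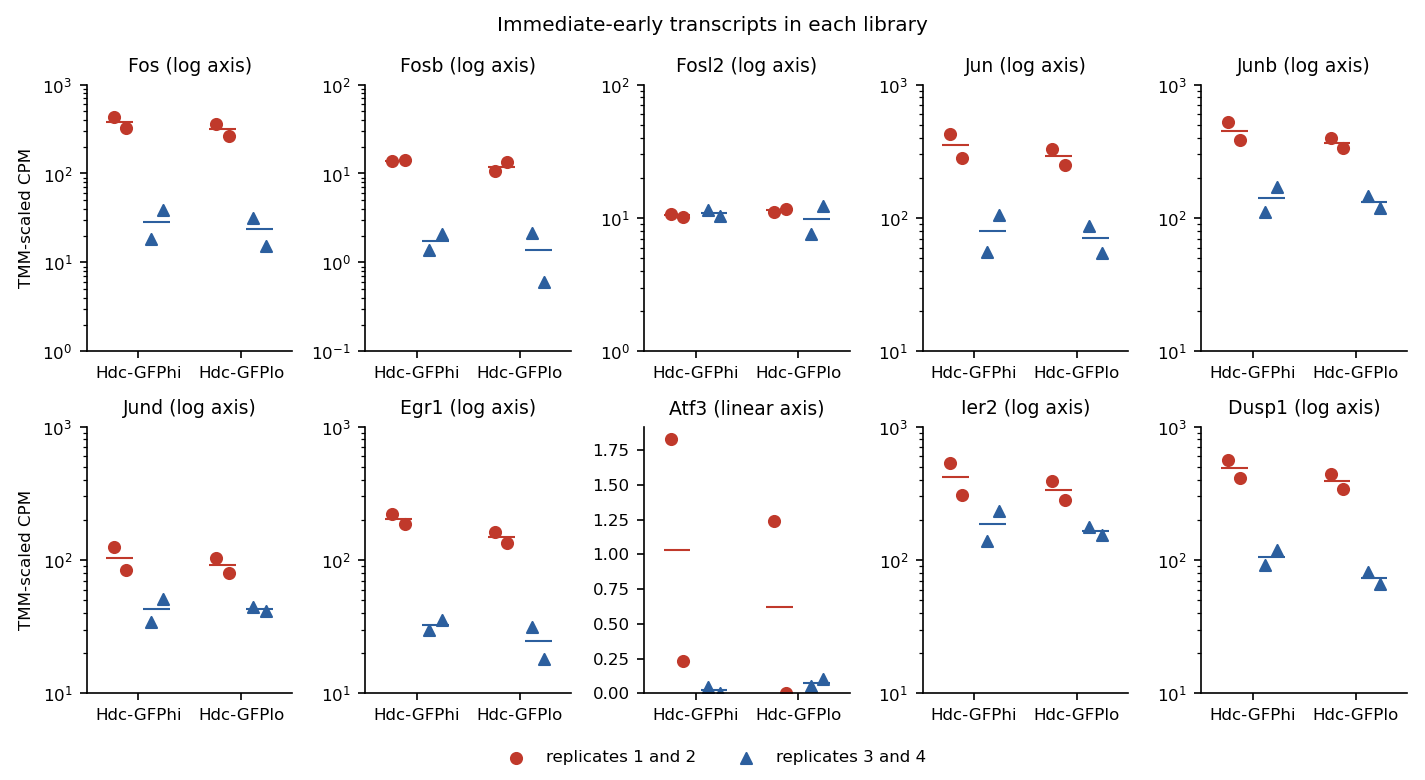
TMM-scaled CPM of each member in each library, on log axes except for Atf3 (linear axis), with replicates 1 and 2 as red circles, replicates 3 and 4 as blue triangles and a line at the mean of each pair of libraries. For all members but Fosl2 and Atf3, the red points lie above all blue points in both fractions, as for Fos at 266 to 433 against 15.5 to 38.4 CPM.

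Among the Fos genes, whose proteins need a partner to bind DNA, Fos showed the widest gap across the split, a ranking that was not tested. Fos had 433, 325, 18.2 and 38.4 CPM in Hdc-GFPhi replicates 1 to 4, against 363, 266, 31.7 and 15.5 CPM in Hdc-GFPlo replicates 1 to 4. The libraries fell into a high and a low set with nothing between, and each set held both fractions. Fos averaged 347 ± 69.8 CPM in replicates 1 and 2 and 26.0 ± 10.9 CPM in replicates 3 and 4 (SD, n = 4 each), a log2 difference of 3.74 ± 0.25 (SE; 95% interval 3.20 to 4.28; adjusted p = 4.2e-06). Between the fractions the log2 fold change of Fos was 0.27 ± 1.36 (adjusted p = 0.976).

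Fosb, a Fos relative induced with similar timing, was much lower but kept the same pattern. It was at 13.8, 14.1, 1.38 and 2.09 CPM in Hdc-GFPhi replicates 1 to 4, against 10.6, 13.3, 2.16 and 0.608 CPM in Hdc-GFPlo replicates 1 to 4. The lowest library of replicates 1 and 2 was well above the highest of replicates 3 and 4, with 224 to 309 counts in replicates 1 and 2 and 12 to 47 counts in replicates 3 and 4. The log2 difference across the split was 3.05 ± 0.31 (adjusted p = 1.7e-04), and that between the fractions was 0.23 ± 1.04 (adjusted p = 0.970).

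Fosl2 encodes Fra-2, a Fos relative that is induced later and lasts longer in stimulated cells. It had 10.7, 10.2, 11.5 and 10.3 CPM in Hdc-GFPhi replicates 1 to 4, against 11.1, 11.7, 7.53 and 12.3 CPM in Hdc-GFPlo replicates 1 to 4. Both sides of the split and both fractions overlapped, and the lowest value came from Hdc-GFPlo replicate 3. The log2 difference across the split was 0.07 (95% interval -0.33 to 0.47; adjusted p = 0.885), and between the fractions it was 0.00 ± 0.19 (adjusted p = 0.998).

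All 3 Jun genes, whose proteins can form AP-1 with Fos proteins or among themselves, were called higher in replicates 1 and 2. Jun had 427, 279, 55.9 and 104 CPM in Hdc-GFPhi replicates 1 to 4, against 329, 250, 87.6 and 54.9 CPM in Hdc-GFPlo replicates 1 to 4. The sides did not overlap, and Hdc-GFPhi replicate 4 was the highest of the low set. The log2 difference across the split was 2.08 ± 0.21 (adjusted p = 1.7e-04), against 0.26 ± 0.83 between the fractions (adjusted p = 0.951).

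Junb, a weaker activator that can oppose Jun and that limits the expansion of myeloid progenitors in mice, had 522, 382, 111 and 170 CPM in Hdc-GFPhi replicates 1 to 4. In Hdc-GFPlo replicates 1 to 4 it had 395, 335, 146 and 118 CPM. Replicates 1 and 2 were again above replicates 3 and 4 in both fractions, by 1.58 ± 0.15 on the log2 scale (adjusted p = 1.2e-04). The log2 fold change between the fractions was 0.25 ± 0.61 (adjusted p = 0.936).

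Jund, the Jun gene that many resting cells express steadily, had the smallest log2 difference of the Jun genes across the split, a ranking that was not tested. It was at 124, 83.5, 34.3 and 51.2 CPM in Hdc-GFPhi replicates 1 to 4, against 104, 79.2, 44.5 and 41.8 CPM in Hdc-GFPlo replicates 1 to 4. The sides did not overlap, and the log2 difference was 1.18 ± 0.16 (adjusted p = 0.00227). Between the fractions it was 0.12 ± 0.41 (adjusted p = 0.954). The Jund call missed the threshold when both libraries numbered 1 were left out, at a log2 difference of 0.93 (adjusted p = 0.0610). On the opposite strand, Jund shares 877 exon bases with Gm11175, Jun 232 with Junos and Junb 173 with Prdx2. The sources used here do not give whether the counting used strand, and Gm11175 and Junos are not among the counted genes. Prdx2 had a log2 difference of -0.13 across the split (adjusted p = 0.586).

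Egr1, the one Egr gene among the members, had 220, 186, 29.8 and 35.3 CPM in Hdc-GFPhi replicates 1 to 4, against 162, 133, 31.3 and 18.3 CPM in Hdc-GFPlo replicates 1 to 4. The split separated the libraries fully. Within replicates 1 and 2, both Hdc-GFPhi libraries were also above both Hdc-GFPlo libraries. Fosb had the same order there and Fosl2 the reverse, and how many of all tested genes had it was not counted. Egr1 averaged 175 ± 37.0 CPM in replicates 1 and 2 and 28.7 ± 7.32 CPM in replicates 3 and 4 (SD, n = 4 each), a log2 difference of 2.61 ± 0.16 (95% interval 2.27 to 2.95; adjusted p = 1.6e-06). Between the fractions it was 0.45 ± 0.97 (adjusted p = 0.927).

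Atf3, a stress-induced factor that pairs with Jun and often represses its targets, was near the limit of detection. It had 41, 5, 1 and 0 counts in Hdc-GFPhi replicates 1 to 4, against 28, 0, 1 and 2 counts in Hdc-GFPlo replicates 1 to 4. The libraries numbered 1 stood above the rest in both fractions, with 1.83 CPM among Hdc-GFPhi and 1.24 CPM among Hdc-GFPlo libraries, and the sides of the split overlapped. Atf3 did not pass the filter on low counts and so has no value in the fit reported here, and it was called higher in replicates 1 and 2 when no filter was used.

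Ier2, a nuclear protein of the early response, had the smallest log2 difference across the split among the called members, a ranking that was not tested. It had 529, 309, 140 and 233 CPM in Hdc-GFPhi replicates 1 to 4, against 388, 281, 177 and 153 CPM in Hdc-GFPlo replicates 1 to 4. The lowest library of replicates 1 and 2, at 281 CPM, was above the highest of replicates 3 and 4, at 233 CPM. The log2 difference was 1.09 ± 0.18 (adjusted p = 0.0118), and between the fractions it was 0.28 ± 0.44 (adjusted p = 0.897). The Ier2 call across the split was lost without Hdc-GFPlo replicate 3 (1.16, adjusted p = 0.111) and without both libraries numbered 1 (0.75, adjusted p = 0.141).

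Dusp1, a phosphatase that switches off p38 and JNK and so limits the early response, had 566, 414, 92.2 and 119 CPM in Hdc-GFPhi replicates 1 to 4. In Hdc-GFPlo replicates 1 to 4 it had 441, 343, 81.4 and 65.6 CPM. The sides of the split did not overlap, and within replicates 3 and 4 both Hdc-GFPhi libraries were above both Hdc-GFPlo libraries. In replicates 1 and 2 the fractions overlapped, and how many of all tested genes had either order was not counted. Dusp1 averaged 441 ± 93.1 CPM in replicates 1 and 2 and 89.5 ± 22.4 CPM in replicates 3 and 4 (SD, n = 4 each), a log2 difference of 2.31 ± 0.14 (95% interval 2.01 to 2.62; adjusted p = 1.6e-06). Between the fractions it was 0.36 ± 0.88 (adjusted p = 0.937). Dusp1 shares 11 exon bases with Ergic1 on the opposite strand, which had a log2 difference of -0.06 across the split (adjusted p = 0.819).

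Hdc-GFPhi replicate 1 held the highest value of 8 members, and the exceptions were Fosb and Fosl2. With the split as a term, the intervals of the fraction comparison narrowed while its values stayed close. Egr1 then had a log2 fold change of 0.43 ± 0.15 (95% interval 0.11 to 0.75; adjusted p = 0.191) and Dusp1 of 0.42 ± 0.13 (0.13 to 0.71; adjusted p = 0.147). These were the 2 members with an unadjusted p under 0.05, a level that 13.9% of all tested genes reached. None of the 9 was called, against 2.07% of all tested genes. Fos was at 0.27 ± 0.23, Fosb at 0.27 ± 0.29, Ier2 at 0.25 ± 0.18, Jun at 0.23 ± 0.20, Junb at 0.20 ± 0.15, Jund at 0.09 ± 0.16 and Fosl2 at 0.01 ± 0.19.

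Within replicates 1 and 2 alone, the log2 fold change of Hdc-GFPhi against Hdc-GFPlo was 0.46 for Egr1 (95% interval -0.02 to 0.95) and 0.32 for Dusp1 (-0.11 to 0.75). Within replicates 3 and 4 it was 0.39 for Egr1 (-0.11 to 0.90) and 0.52 for Dusp1 (0.08 to 0.96; adjusted p = 0.663). No member was called on either side, where 0.226% of all tested genes were called in replicates 1 and 2 and 0.195% in replicates 3 and 4. Each of these values compares 2 libraries with 2, with the spread taken from the fit of all 8.

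Measured in each fraction by itself, the split gave 95% intervals that overlapped between the fractions for every tested member. Fos differed by 3.74 ± 0.38 in Hdc-GFPhi and by 3.74 ± 0.39 in Hdc-GFPlo on the log2 scale, and Egr1 by 2.64 ± 0.24 in Hdc-GFPhi and by 2.57 ± 0.24 in Hdc-GFPlo. In Hdc-GFPhi, 6 members were called higher, where 0.12% of all tested genes were called higher, and in Hdc-GFPlo, 6 were called higher, where 0.0827% were. These were Fos, Fosb, Jun, Junb, Egr1 and Dusp1 in both. Jund had a log2 difference of 1.28 in Hdc-GFPhi (adjusted p = 0.0647) and 1.09 in Hdc-GFPlo (adjusted p = 0.359), and Ier2 of 1.17 in Hdc-GFPhi (adjusted p = 0.172) and 1.02 in Hdc-GFPlo (adjusted p = 0.641). The test of the difference of the split between the fractions called 0 genes, with 1.76% of all tested genes (234 of 13300) at an unadjusted p under 0.05, none of them a member. Its 95% interval for Fos was -1.12 to 1.12, and for Dusp1, at -0.20 (Hdc-GFPhi minus Hdc-GFPlo), it was -0.81 to 0.42.

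**Figure D2:**
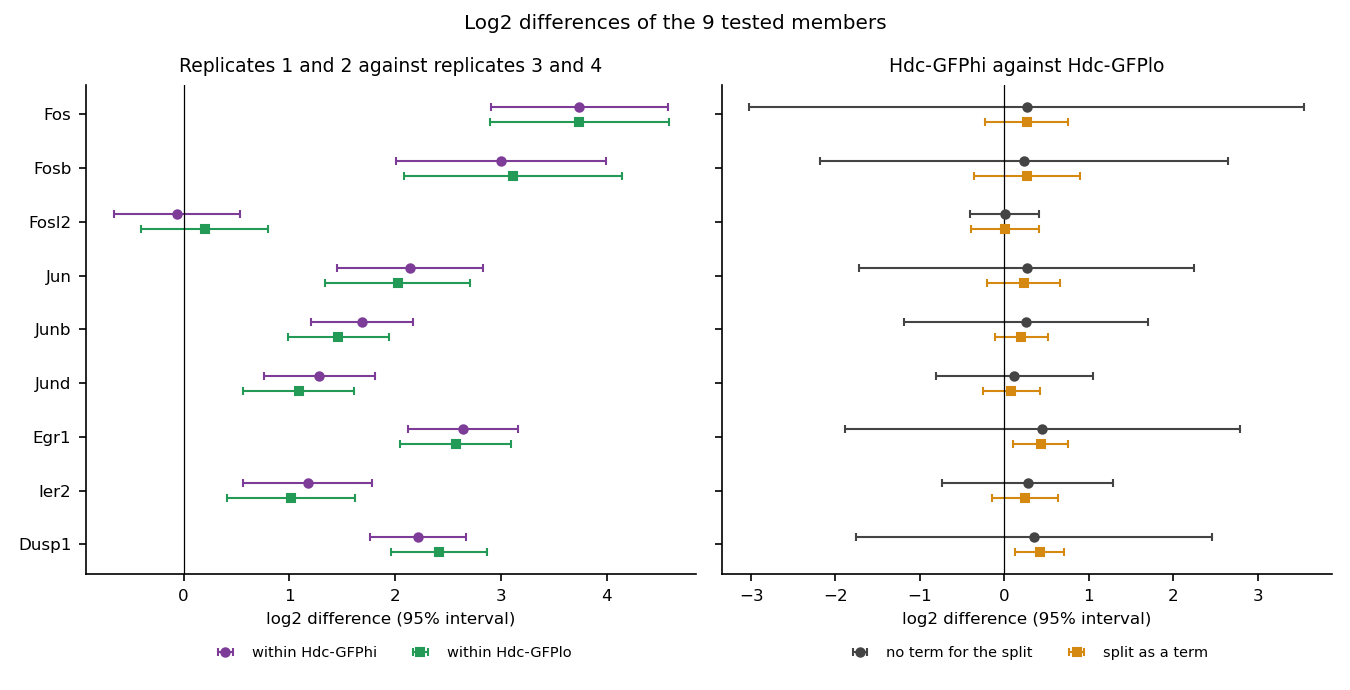
Log2 differences of the 9 tested members with 95% intervals from edgeR, on the left for replicates 1 and 2 against replicates 3 and 4 within Hdc-GFPhi (circles) and within Hdc-GFPlo (squares), on the right for Hdc-GFPhi against Hdc-GFPlo without (circles) and with (squares) the split as a term. On the left the intervals of all members but Fosl2 lie above 0, with estimates of up to 3.74 for Fos. On the right the intervals with the split as a term leave out 0 for Egr1 and Dusp1.

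Levels between genes were compared as CPM per kilobase of the longest principal transcript. In replicates 1 and 2, Ier2 (248 ± 73.1 CPM per kb), Junb (226 ± 44.2) and Dusp1 (221 ± 46.8) led with overlapping spreads, and Fos followed at 165 ± 33.1 (SD, n = 4 each). Ier2 was above Junb in 2 of the 4 libraries and Junb above Dusp1 in 3, while Dusp1 was above Fos in all 4. Jun, at 100.7 ± 24.3, stood below Fos and above Jund by more than the spread. Jund at 58.6 ± 12.4 was above Egr1 at 39.1 ± 8.26 in all 4 libraries, though their spreads overlapped. Fosb at 3.42 ± 0.425, Fosl2 at 1.67 ± 0.0988 and Atf3 at 0.416 ended the order.

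In replicates 3 and 4 the same genes led, with Ier2 at 115 ± 27, Junb at 75.4 ± 15.0 and Dusp1 at 45.0 ± 11.3 CPM per kb. Fos, at 12.3 ± 5.19 CPM per kb, then stood below Jund (25.7 ± 4.19) and Jun (23.7 ± 7.67), which did not differ beyond their spread. Jund was above Jun in 2 of the 4 libraries. Ier2 was above Junb, Jun above Fos, and Fos above Egr1 (6.39 ± 1.63) in all 4 libraries, though the spreads of neighbours came close or overlapped. Fosl2 (1.59 ± 0.319) was above Fosb (0.413 ± 0.192). Atf3 was lowest again, at 0.0254 CPM per kb.

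The make-up of AP-1 transcripts differed with the sides. The ratio of Fos to Jun, per kilobase, was 1.53 to 1.76 in replicates 1 and 2 and 0.426 to 0.557 in replicates 3 and 4. Over the Fos and Jun genes among the members, which leave out the Fos relative Fosl1, the sums were also compared. The Fos genes summed to 0.423 to 0.461 of the Jun genes in replicates 1 and 2, and to 0.0870 to 0.129 in replicates 3 and 4. Among the Fos genes, Fos itself made up 96.0% to 97.5% of the per-kilobase sum in replicates 1 and 2 and 78.3% to 89.7% in replicates 3 and 4. Fosl2 made up 0.778% to 1.36% in replicates 1 and 2 and 6.87% to 20.02% in replicates 3 and 4. Fosb made up 1.58% to 2.67% in replicates 1 and 2 and 1.72% to 3.40% in replicates 3 and 4. Among the Jun genes the shares were closer. Jun itself made up 25.1% to 27% in replicates 1 and 2 and 16% to 20.8% in replicates 3 and 4, and Jund 14.3% to 16.3% in replicates 1 and 2 and 19.5% to 23.3% in replicates 3 and 4. Junb made up 56.9% to 60.6% in replicates 1 and 2 and 59.7% to 61.6% in replicates 3 and 4. Of these 6 shares, those of Fosb and Junb overlapped between the sides.

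**Figure D3:**
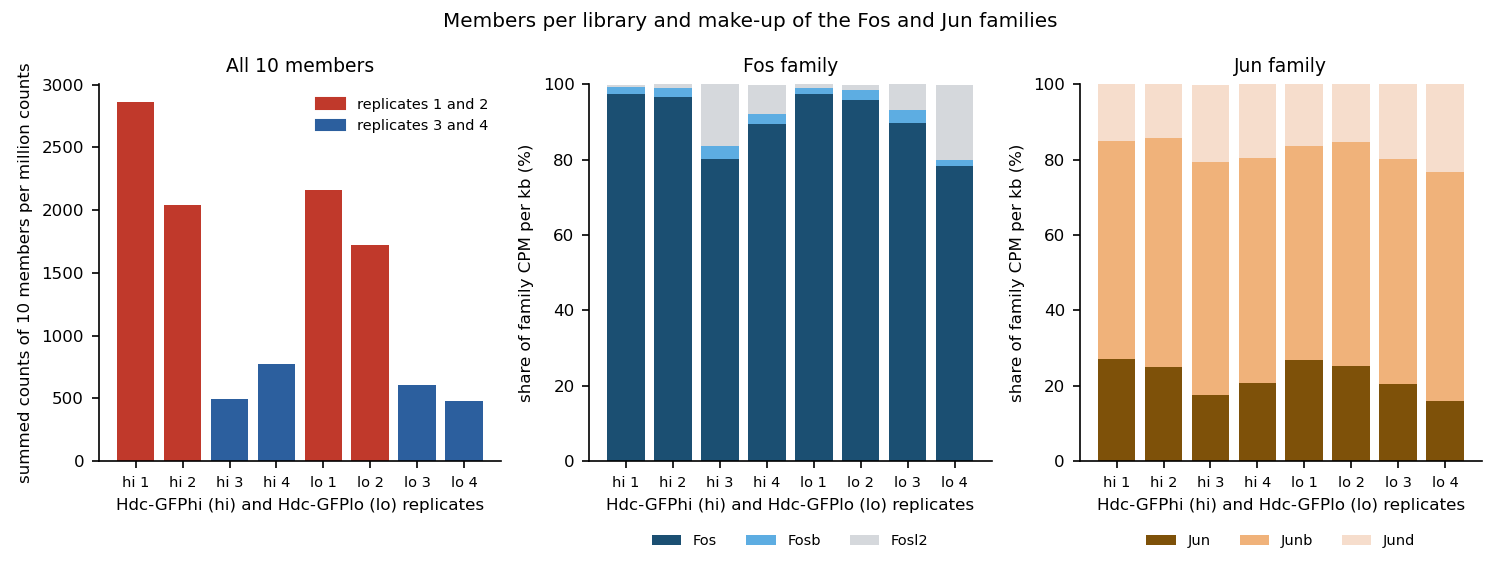
Unscaled CPM (counts over the library's total) summed over the 10 members in each library (left). The middle panel shows each gene's share in the per-kilobase CPM sum of the members' Fos genes, and the right panel that of their Jun genes. The sums are 1723 to 2859 CPM in replicates 1 and 2 and 474 to 770 in replicates 3 and 4, and the Fosl2 share is at most 1.36% in replicates 1 and 2 and at least 6.87% in replicates 3 and 4.

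Further genes of the early response, taken as a list of 34 primary response genes outside the members, were partly called with the split. Of 32 tested, 13 were called higher in replicates 1 and 2 and none lower, with a median log2 difference of 0.68 beside 0.00 over all tested genes. Zfp36, which destabilises AU-rich messengers, averaged 235 ± 25.5 CPM in replicates 1 and 2 and 89.7 ± 13.9 CPM in replicates 3 and 4 (SD, n = 4 each; log2 difference 1.38 ± 0.12, adjusted p = 5.5e-05). Ppp1r15a, a phosphatase subunit of the stress response, averaged 152 ± 26.2 CPM in replicates 1 and 2 and 52.2 ± 8.30 CPM in replicates 3 and 4 (1.53 ± 0.13, adjusted p = 7.1e-05). Klf2, a Krüppel-like factor, averaged 45.5 ± 18.4 CPM in replicates 1 and 2 and 7.07 ± 1.41 CPM in replicates 3 and 4 (2.70 ± 0.26, adjusted p = 1.2e-04). The others called were Klf4, Klf6, Klf10, Nr4a1, Btg2, Mcl1, Rhob, Ptgs2, Nfkbiz and Socs3, and Myc was at -0.05 ± 0.11. Ptgs2 had at most 15 counts in a library and at most 0.0554 CPM in replicates 3 and 4. It passed the filter on low counts only through replicates 1 and 2, so its call carries little weight. Between the fractions none of the 32 was called, with a median of -0.02. Bhlhe40 (0.50 ± 0.21, adjusted p = 0.394), Btg2 (-0.51 ± 0.26, adjusted p = 0.518) and Ier5l (0.57 ± 0.30, adjusted p = 0.553) had the smallest p values.

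Of 13 tested MAP kinase phosphatase and Sprouty genes, which like Dusp1 feed back on signalling, 3 were called higher in replicates 1 and 2 and none lower (median 0.19). Dusp6, which acts on ERK, averaged 215 ± 24.6 CPM in replicates 1 and 2 and 118 ± 12.1 CPM in replicates 3 and 4 (SD, n = 4 each; log2 difference 0.87 ± 0.11, adjusted p = 8.7e-04). Dusp2 (0.92 ± 0.18, adjusted p = 0.0301) and Spry1 (0.83 ± 0.17, adjusted p = 0.0337) were also called. Both were sensitive to single libraries. Dusp2 missed the threshold in 5 of the 8 fits that leave out 1 library, those without Hdc-GFPhi replicates 1, 3 and 4 and Hdc-GFPlo replicates 1 and 3 (adjusted p at most 0.132), and was at 0.47 without both libraries numbered 1 (adjusted p = 0.171). Spry1 also missed it in 5, those without each Hdc-GFPhi library and Hdc-GFPlo replicate 2 (at most 0.163). None was called between the fractions (median -0.01), where Spry2 (-1.26 ± 0.33, adjusted p = 0.119), Dusp7 (-0.43 ± 0.13, adjusted p = 0.162) and Dusp4 (0.76 ± 0.39, adjusted p = 0.533) had the smallest p values. DESeq2 called Spry2 (adjusted p = 0.0144) and Dusp7 (adjusted p = 0.0330) between the fractions.

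The closest relatives of the members gave no call. Of 10 tested AP-1 family genes outside the members, 0 were called across the split (median 0.10) and 0 between the fractions (median 0.00). Across the split Mafk was at 0.29 ± 0.13 (adjusted p = 0.288), Maf at 0.55 ± 0.39 (adjusted p = 0.490) and Atf2 at -0.19 ± 0.11 (adjusted p = 0.390), and between the fractions Maf at -0.84 ± 0.41 (adjusted p = 0.499), Batf at 0.24 ± 0.14 (adjusted p = 0.591) and Mafk at -0.26 ± 0.15 (adjusted p = 0.608). Of the Egr relatives, Egr2 had 81, 66, 1 and 19 counts in Hdc-GFPhi replicates 1 to 4, against 36, 20, 2 and 17 counts in Hdc-GFPlo replicates 1 to 4. Its libraries fell on the same sides as those of Egr1, with a log2 difference of 2.22 ± 0.67 that was not called (adjusted p = 0.150), except in fits without Hdc-GFPlo replicate 4 (3.06, adjusted p = 0.0247), with no filter (2.22, adjusted p = 7.7e-04) and with DESeq2. Egr3 and Egr4 were too low to be tested. Egr3 had at most 2 counts in a library. Egr4 had at most 18 counts, at 0.187 to 0.803 CPM in replicates 1 and 2 and at 0 CPM in replicates 3 and 4. The Egr co-repressor genes Nab2 (0.23 ± 0.14, adjusted p = 0.415) and Nab1 (-0.04 ± 0.10, adjusted p = 0.852) were not called. Between the fractions Nab2 was at 0.37 ± 0.15 (adjusted p = 0.376), Nab1 at -0.13 ± 0.10 (adjusted p = 0.713) and Egr2 at 0.998 ± 0.864 (adjusted p = 0.775).

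Genes of the kinases and factors that switch the members on, such as Srf, Creb1 and the MAP kinases, gave no call. Of 18 tested, 0 were called across the split (median 0.04) and 0 between the fractions (median 0.03). Across the split 5 of the 18 had an unadjusted p under 0.05, where 17% of all tested genes had one. The smallest p values across the split belonged to Creb1 (-0.39 ± 0.12, adjusted p = 0.153), Rps6ka1 (0.30 ± 0.10, adjusted p = 0.183) and Rps6ka5 (-0.32 ± 0.12, adjusted p = 0.221). Between the fractions they belonged to Creb1 (-0.27 ± 0.16, adjusted p = 0.624), Atf1 (-0.18 ± 0.13, adjusted p = 0.702) and Elk4 (-0.19 ± 0.14, adjusted p = 0.718). Rps6ka1 was called across the split without Hdc-GFPlo replicate 4 (adjusted p = 0.0365), and Creb1 with no filter (adjusted p = 0.0265).

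Heat shock genes, a separate stress response, gave no call among 11 tested, across the split (median 0.06) or between the fractions (median -0.05). Across the split 6 of the 11 had an unadjusted p under 0.05, with differences in both directions, where 17% of all tested genes had one. Hspa1b, an inducible HSP70 gene, had 48, 16, 11 and 6 counts in Hdc-GFPhi replicates 1 to 4, against 56, 7, 6 and 6 counts in Hdc-GFPlo replicates 1 to 4. As for Atf3, the libraries numbered 1 were the highest, and the log2 difference of 2.05 ± 0.60 was not called (adjusted p = 0.138), except with no filter (adjusted p = 0.0247). Its near-identical neighbour Hspa1a, too low to be tested, had 33, 3, 0 and 0 counts in Hdc-GFPhi replicates 1 to 4, against 24, 0, 2 and 0 counts in Hdc-GFPlo replicates 1 to 4, and the sources used here do not give how shared reads were counted. Across the split Hspd1 was at -0.30 ± 0.10 (adjusted p = 0.164) and Dnajb1 at 0.34 ± 0.11 (adjusted p = 0.175). Between the fractions Dnaja1 was at -0.39 ± 0.16 (adjusted p = 0.368), Hspd1 at -0.27 ± 0.13 (adjusted p = 0.479) and Bag3 at 0.39 ± 0.21 (adjusted p = 0.556).

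**Figure D4:**
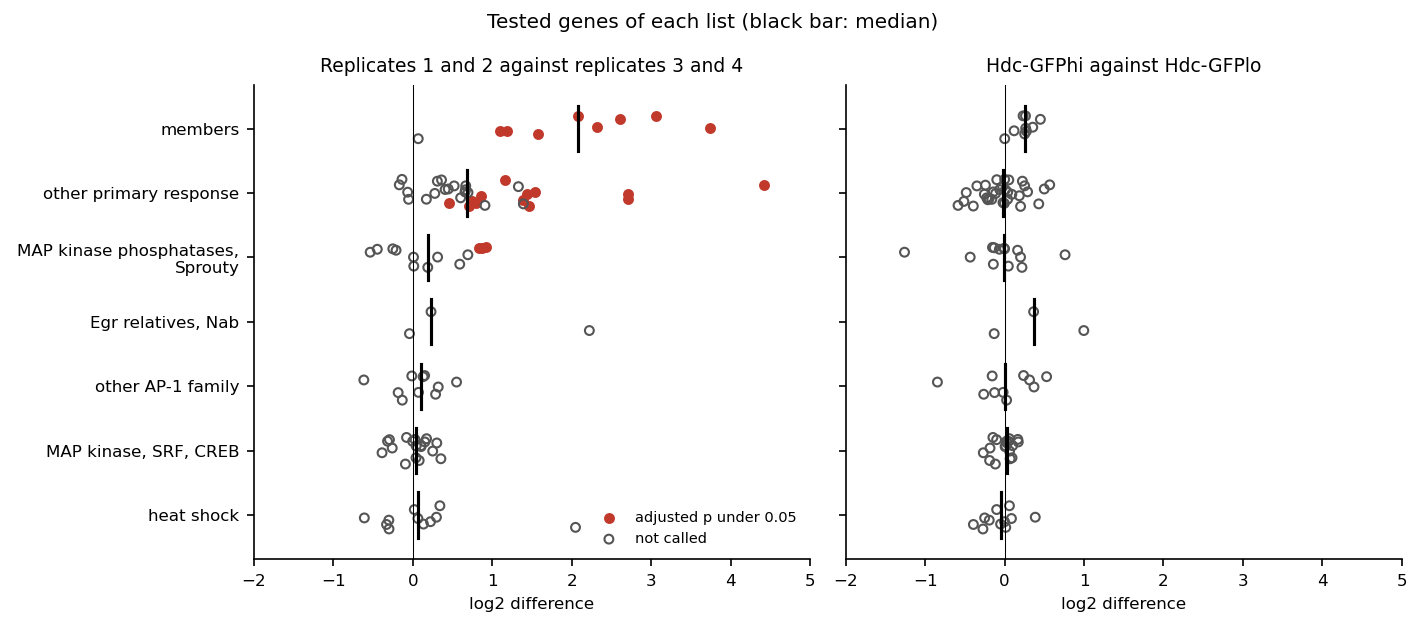
Log2 differences of the tested genes of each list, for replicates 1 and 2 against replicates 3 and 4 (left) and Hdc-GFPhi against Hdc-GFPlo (right), with filled points for an adjusted p under 0.05, open points for the others and a black bar at the list's median. On the left 8 of 9 members, 13 of 32 other primary response genes and 3 of 13 MAP kinase phosphatase and Sprouty genes are filled, and on the right no point is.

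Among the genes outside the members whose pattern over the 8 libraries was most like the members' mean standardised log2 CPM were Ggcx (Pearson r = 0.978), Hist1h1c (0.978), Klf10 (0.975), Txnip (0.970), Sh3gl1 (0.968), Ppp1r15a (0.961) and Zfp36 (0.957). These r values largely follow the gap between the sides of the split and are given as a description. For all of these genes the libraries of replicates 1 and 2 were above those of replicates 3 and 4. The choice by likeness favours that order, which 3.99% of all tested genes had. Across the split Ggcx (log2 difference 0.54, adjusted p = 0.0858) and Sh3gl1 (0.25, adjusted p = 0.187) were not called, and the others named were. Txnip averaged 796 ± 69.5 CPM in replicates 1 and 2 and 420.1 ± 41.8 CPM in replicates 3 and 4, and Hist1h1c averaged 51.4 ± 2.98 CPM in replicates 1 and 2 and 22.2 ± 3.91 CPM in replicates 3 and 4 (SD, n = 4 each). Klf10, Ppp1r15a and Zfp36 also belong to the primary response list.

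Other transcripts moved with the same split. A list of 16 pancreatic enzyme genes, chosen after its values were seen, summed to 10.3 to 12.2 CPM in replicates 1 and 2 and to 33.3 to 295 CPM in replicates 3 and 4. The upper end was Hdc-GFPhi replicate 4 alone, and the next library, Hdc-GFPhi replicate 3, was at 58.1 CPM. Of the 13 tested, 10 were called lower in replicates 1 and 2, where 0.383% of all tested genes were. In every library of replicates 1 and 2, 12 were lower than in any of replicates 3 and 4, an order that 3.87% of all tested genes had. Of all 16, 6 were at 0 counts in all libraries of replicates 1 and 2. Such genes could pass the filter on low counts only through replicates 3 and 4. With the list chosen after its values were seen, its calls are a description. Of 7 neutrophil and 8 stem cell markers, 0 were called across the split, and the 6 T and NK cell markers were too low to be tested. Neutrophil markers summed to 1126 to 2244 CPM in replicates 1 and 2 and 1740 to 2553 CPM in replicates 3 and 4, and stem cell markers to 4733 to 5072 CPM in replicates 1 and 2 and 4021 to 4869 CPM in replicates 3 and 4. T and NK cell markers summed to 0.297 to 1.21 CPM in replicates 1 and 2 and 0.0890 to 2.94 CPM in replicates 3 and 4. All 7 neutrophil markers had log2 differences below 0 (median -0.45). Of 6 B cell markers, 0 were called and all 6 lay above 0 (median 0.53), at a summed 121 to 390 CPM in replicates 1 and 2 and 96.3 to 240 CPM in replicates 3 and 4. Of 4 tested erythroid markers, 0 were called (median 0.15), at 79.5 to 265 CPM in replicates 1 and 2 and 66.2 to 94.5 CPM in replicates 3 and 4. Among them, Alas2, an enzyme of haem synthesis, was higher in every library of replicates 1 and 2 and just missed the threshold (1.69 ± 0.34, adjusted p = 0.0508). Of 5 megakaryocyte markers, 0 were called and all 5 lay below 0 (median -0.47), at 61.2 to 123 CPM in replicates 1 and 2 and 73.7 to 123 CPM in replicates 3 and 4. Of 3 tested mast cell and basophil markers, 0 were called and all 3 lay below 0 (median -1.59), at 6.41 to 45.0 CPM in replicates 1 and 2 and 12.3 to 96.0 CPM in replicates 3 and 4. Of 4 tested stromal and endothelial markers, 0 were called (median 0.46), at 126 to 175 CPM in replicates 1 and 2 and 113 to 138 CPM in replicates 3 and 4. Of 7 monocyte and macrophage markers, 1 was called, at a summed 51.2 to 133 CPM in replicates 1 and 2 and 41.0 to 79.8 CPM in replicates 3 and 4. In the split fit, 17% of all tested genes had an unadjusted p under 0.05. So did 5 of 7 neutrophil, 4 of 6 B cell, 3 of 8 stem cell and 2 of 3 mast cell and basophil markers. For megakaryocyte markers it was 2 of 5, for stromal and endothelial 2 of 4, for erythroid 1 of 4 and for monocyte and macrophage 1 of 7. The part of these transcripts, and of the cells that carry them, in the members' split was not tested.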

How the data were processed

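The 8 libraries were made from sorted LSK cells, 4 per fraction. Per the labels' protocols, each started from 2000 cells, whose RNA was extracted with a PicoPure kit. The cDNA came from a SMARTer ultra-low-input amplification and the libraries from Nextera XT, with no molecular identifiers named. Tools named in the submitters' processing notes are bcl2fastq 1.8.4, TopHat2 2.04, Bowtie2 and HTSeq 0.6.1, and the build named is mm9. The sources used here do not give the gene annotation or the strand setting. The authors deposited raw counts per gene symbol as whole numbers, with library totals of 16726179 to 23051277. Sample titles gave the groups and replicate numbers. The labels do not say that replicates came from separate mice, so the p-values measure only spread between samples that may be technical.

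The filterByExpr function kept 13300 of 23284 genes, and TMM scaled the libraries. Tests were edgeR 4.0.16 quasi-likelihood fits (robust glmQLFit, glmQLFTest) in R 4.3.3 on all 8 libraries. Adjustment was Benjamini-Hochberg over all tested genes, and a gene is said to be called past a threshold of 0.05. The fits were of fraction, of split with fraction as a term, of the 4 combinations of both, and of their interaction. Log2 values are Hdc-GFPhi over Hdc-GFPlo, or replicates 1 and 2 over replicates 3 and 4, with the SE from the F statistic and 95% intervals. The coefficient of biological variation was 19.9% in the fraction fit and 17.0% in the split fit. CPM is TMM-scaled, and per-kilobase levels use the longest principal transcript of GENCODE M21 (GRCm38). Likeness used log2 CPM with a prior count of 2 and genes with a mean count of at least 50. Upstream windows came from a RefSeq table (GRCm38.p6), which is not the build of the count table.

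The members, the 6 pathway lists (97 genes) and the marker lists were chosen with earlier results of these data known. Named are the members, up to 3 tested genes per pathway list and comparison with the smallest p, and the 8 genes most like the members, leaving out predicted genes. One gene that this rule names is not reported here. Called list members beyond these, Myc, Egr3, Egr4, Hspa1a, the overlapping genes, the sex-linked genes and the marker genes named were picked with their values in view. As alternatives, the results were recomputed with other scalings (size factors of DESeq2, upper quartile, no factor), other filters, the DESeq2 1.42.0 Wald test, limma 3.58.1 voom, estimation that is not robust, a block for the replicate number, a term for the split and with each library left out. Leaving out both libraries numbered 1 was added after seeing the data.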

Additional observations from a re-analysis of the deposited data

Results flagged for a closer look

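In 7 of 78 groups of 4 libraries, over the members and the named list genes, 1 library stood far from the other three by Dixon's test, which chance alone gives for about 1 group in 20. Among the members this was the case for Atf3 in both fractions. Hdc-GFPhi replicate 1 was highest at 1.83 CPM (41 counts), with the next library at 0.233 CPM, and Hdc-GFPlo replicate 1 was highest at 1.24 CPM (28 counts), with the next at 0.101 CPM. Hspa1b was also highest in Hdc-GFPlo replicate 1, at 2.48 CPM with the next library at 0.416 CPM.

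Other list genes with 1 library apart were Mafk, lowest in Hdc-GFPhi replicate 4 at 49.96 CPM with the next at 65.6 CPM, and Spry2, lowest in Hdc-GFPhi replicate 2 at 2.05 CPM with the next at 3.03 CPM. Rps6ka5 was highest in Hdc-GFPlo replicate 4 at 88.3 CPM with the next at 64.7 CPM, and Bag3 in Hdc-GFPlo replicate 2 at 14.9 CPM with the next at 9.63 CPM.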

How the results depend on the processing

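No member was called between the fractions under any of 19 alternatives. Their log2 fold changes turned sign without single libraries, with a range of -0.40 to 0.97 for Fos, -0.21 to 0.80 for Fosb, -0.12 to 0.078 for Fosl2, -0.29 to 0.73 for Jun, -0.16 to 0.57 for Junb, -0.25 to 0.41 for Jund, -0.034 to 0.96 for Egr1, -0.13 to 0.57 for Ier2 and -0.15 to 0.87 for Dusp1. Without Hdc-GFPhi replicate 1, 8 of the 9 tested members lay below 0, and Fosl2 did so in the fits that left out replicate 3 of either fraction. With voom, Fosl2 (-0.090) and Egr2 (-0.22) turned sign. Across the split, Fos, Fosb, Jun, Junb, Egr1 and Dusp1 were called under all 17 alternatives. The number of called members was 9 with no filter, where Atf3 was tested too, 7 without Hdc-GFPlo replicate 3 and 6 without both libraries numbered 1. Fosl2 was at -0.019 with voom and ranged from -0.076 to 0.19 without single libraries, and Nab1 was at 0.0024 without both libraries numbered 1 and ranged from -0.095 to 0.0097.

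The number of all genes called between the fractions was 126 as reported, 404 with DESeq2, 278 with voom, 275 with the split as a covariate and 33 without both libraries numbered 1. Leaving out single libraries gave 52 (without Hdc-GFPlo replicate 1), 68 (without Hdc-GFPhi replicate 3) and up to 146. With the replicate number as a block it was 224. No label gives the numbers a meaning, deviations of same-numbered libraries correlated at 0.26, 0.35, 0.08 and 0.10, and 2 of 4 correlated best with their own number, so the libraries were not treated as paired. Across the split the number was 116 as reported, 873 with no filter, 485 with DESeq2 and 49 without both libraries numbered 1. Without single libraries it was 53 to 751, the last without Hdc-GFPlo replicate 4, 53 to 59 without one Hdc-GFPhi library and 64 without Hdc-GFPlo replicate 2. The cause of these shifts was not tested. Depth limits Atf3, Egr2, Egr3, Egr4, Hspa1a and Hspa1b. It also limits the called Ptgs2, with at most 15 counts in a library, and Klf4, with at most 99.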
